A study of Homo sapiens with 6 samples.

Results

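Epithelial to mesenchymal transition (EMT) is directed by a small set of transcription factors. Transcripts of 7 of these factors (SNAI1, SNAI2, TWIST1, TWIST2, ZEB1, ZEB2 and FOXC2) and of 3 mesenchymal markers (VIM, FN1 and SPARC) were compared between pure luminal (pLUM) and pure luminobasal (pLB) breast cancer cells. The 10 genes were chosen by name, with no threshold on their values, and every gene probe that carried one of these names was taken. This gave 13 probes of 34127, for 10 genes of 25940 on the array.

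pLUM and pLB are isogenic lines derived from xenografts of T47Dco cells, a subline of the estrogen receptor-positive human breast cancer line T47D, which the labels name as parental. As a limit of the model, each line came from a single tumor that was sorted repeatedly for CLD3 and CD49f. pLUM originated in a tumor of an estradiol (E)-treated mouse and pLB in a tumor of a mouse given E plus progesterone. RNA was measured on 3 arrays of pLUM cells, which had received 1 nM E for 72 h, and on 3 arrays of pLB cells, which were kept under estrogen withdrawal (EWD). Line, tumor of origin and hormone therefore coincided on all 6 arrays and cannot be told apart. Cells were stained for CK5 and sorted before RNA extraction, but the labels do not state which fraction was hybridized. The arrays of a line represent triplicate sorts of the same cells, so that p-values measure the spread between these sorts. Precision is limited by the 3 arrays a line, for which the smallest two-sided p of an exact permutation test is 0.1.

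SNAI1, SNAI2 (Slug), ZEB1 and ZEB2 are zinc finger repressors that bind E-box sequences, classically in the promoter of CDH1, which encodes E-cadherin. TWIST1 and TWIST2 are basic helix-loop-helix factors and FOXC2 is a forkhead factor. VIM (vimentin) forms the intermediate filaments of mesenchymal cells, FN1 is fibronectin and SPARC is a secreted glycoprotein of the matrix. SNAI2 is also a factor of normal basal mammary epithelium, and VIM is found in basal-like breast cancers, so that these genes do not mark mesenchymal cells alone.

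The probes were 60-base oligonucleotides, each with 1 spot per array. The following are printed because TWIST1 and VIM changed in opposite directions with the deposited background correction. The other 3 mark transcripts whose signal stayed at or near background. Positions are those of the files, on hg19. The TWIST1 probe lay at chr7:19156462-19156521 on the minus strand (NM_000474). The VIM probe was split over chr10:17278347-17279256 on the plus strand (NM_003380), a span of 910 bases, and so crosses an intron. The ZEB2 probe lay at chr2:145182363-145182422 (NM_014795) and the FN1 probe was split over chr2:216288217-216288895 (NM_054034), both on the minus strand. The FOXC2 probe lay at chr16:86602275-86602334 on the plus strand (NM_005251).
TWIST1: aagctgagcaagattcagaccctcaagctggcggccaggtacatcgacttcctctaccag
VIM: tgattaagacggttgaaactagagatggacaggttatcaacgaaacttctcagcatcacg
ZEB2: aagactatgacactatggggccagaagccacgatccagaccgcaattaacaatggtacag
FOXC2: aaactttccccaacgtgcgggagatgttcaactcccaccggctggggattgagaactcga
FN1: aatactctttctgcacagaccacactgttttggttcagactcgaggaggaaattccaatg

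ZEB1 and VIM both lie on chromosome 10, and the 250 bases before their start sites are shown for comparison. Both rose in pLB with the deposited background correction, but neither was called with normexp background correction. The sequences were taken from RefSeq on GRCh38.p14, at chr10:31318167-31318416 and chr10:17227991-17228240, both on the plus strand. The E-box letters CAGGTG, or CACCTG on the other strand, were searched on both strands and are in capitals. They occurred once in the ZEB1 sequence, beginning 57 bases before the start site, and not in that of VIM.
ZEB1: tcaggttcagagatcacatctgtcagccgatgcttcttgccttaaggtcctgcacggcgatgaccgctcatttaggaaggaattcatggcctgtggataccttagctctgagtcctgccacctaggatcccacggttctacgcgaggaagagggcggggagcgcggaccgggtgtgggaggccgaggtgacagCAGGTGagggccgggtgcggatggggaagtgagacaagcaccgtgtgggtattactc
VIM: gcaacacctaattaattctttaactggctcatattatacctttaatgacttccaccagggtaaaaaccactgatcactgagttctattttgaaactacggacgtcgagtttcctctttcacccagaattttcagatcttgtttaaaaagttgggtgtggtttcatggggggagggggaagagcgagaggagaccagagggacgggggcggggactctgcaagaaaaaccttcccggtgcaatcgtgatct
Of 27305 sequences of this length, 4781, or 17.5%, held these letters. A match describes the sequence and does not show that a factor binds there. The corresponding sequences of TWIST2, ZEB2, FN1 and SPARC did not hold them either.

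Signals are intensities divided by the array's 75th percentile and given as log2, so that a value of 0 is the 75th percentile. A probe was called well above background where the scanner software had flagged its spot so, and the lowest such signal on each array lay between -5.70 and -4.75 on this scale. Values below it have no meaningful order. With limma, 23099 probes that had this flag on 3 or more arrays were compared. A probe was called when the lines differed by at least 2-fold with a Benjamini-Hochberg adjusted p under 0.05. Across these probes r was 0.972 to 0.991 between arrays of a line and 0.780 to 0.806 between lines. Line markers followed the labels. The basal genes KRT5, KRT14, TP63 and EGFR were each called higher in pLB. Of 7 luminal genes, 6 (ESR1, PGR, GATA3, FOXA1, MUC1 and KRT8, but not KRT18) were called lower. The 3 KRT8 probes disagreed, with 2 called lower and 1 higher. Signals of bulk RNA cannot tell fewer expressing cells from less RNA per cell.

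Of the 10 genes, SNAI2, ZEB1 and VIM were higher in pLB and TWIST1 was lower. SNAI1 and SPARC were tested and not called, and TWIST2, ZEB2, FOXC2 and FN1 did not pass the filter on dim probes. The lines differed widely, with 22.7% of 17667 tested genes called higher in pLB and 23.0% called lower. A call by itself therefore says little about a gene, and 3 and 1 of 6 tested genes are too few to set against these shares. SNAI2 and the dimmer ZEB1 probe passed the filter only through the pLB arrays. The median difference of the 6 tested genes was 1.94 on the log2 scale, with 0.04 over all tested genes. With normexp these medians were 0.23 and -0.21. Arrays of the lines did not overlap for 6 of 7 tested probes, beside 68.1% of all probes. The 6 include the probes that passed only through pLB, so that this count is no result about the 10 genes.

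**Figure D1:**
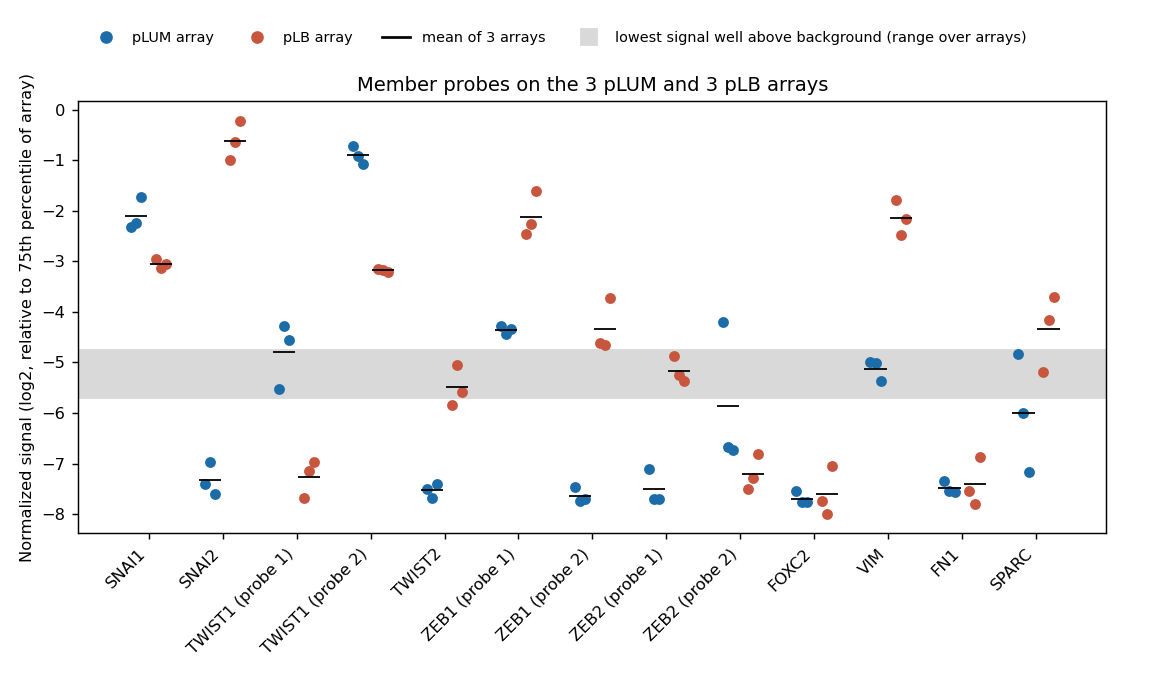
Normalized signal of the 13 probes on each of 3 pLUM and 3 pLB arrays, as log2 relative to the 75th percentile of the array, with the mean of each line as a black bar. TWIST1 and ZEB2 probe 2 are those printed above, and ZEB1 probe 1 is the brighter one. The grey band spans the lowest signals well above background on the 6 arrays. SNAI2 lay below the band in pLUM and between -0.99 and -0.22 in pLB, whereas FOXC2 and FN1 lay below it on all arrays.

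SNAI2 showed the largest difference of the 10 genes. Its signal was -7.40, -6.98 and -7.60 on the pLUM arrays and -0.99, -0.64 and -0.22 on the pLB arrays. As intensities these were 2.81, 4.46 and 2.91 against 438, 446 and 384. No pLUM array was well above background and all 3 pLB arrays were. With the deposited background correction SNAI2 was therefore at least 27.1-fold higher in pLB. In limma the adjusted p was 1.6e-06 for the fitted difference, and 1.9e-06 with signals raised to the lowest flagged signal. With normexp background correction the log2 difference was 2.34, smaller than the bound (4.76 as log2). Below, an adjusted p beside a bound is that of the fitted difference. The probe lies on chromosome 8 from 49830710 to 49830769 of hg19 (NM_003068).

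SNAI1, the closest relative of SNAI2 in the group, did not move with it. Its signal was -2.33, -2.24 and -1.72 in pLUM and -2.95, -3.13 and -3.05 in pLB, and all 6 arrays were well above background. The lines did not overlap, and SNAI1 was 1.93-fold lower in pLB, with a log2 difference of -0.95 (95% interval -1.43 to -0.46; limma, adjusted p = 0.0053). The difference passed the adjusted p but fell short of 2-fold. It did not pass with slide as a block (-0.85; adjusted p = 0.052) or with spike-in scaling (-0.69; adjusted p = 0.16). About as many genes changed more as changed less, since 51.0% of tested genes had a smaller difference. The probe lies on chromosome 20 from 48605170 to 48605229 (NM_005985). Without pLUM replicate 1 or replicate 2 the difference was -1.06 or -1.02, and SNAI1 was then called lower.

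TWIST1 was the only gene of the group called lower in pLB. The probe printed above read -0.71, -0.92 and -1.08 in pLUM, and -3.15, -3.17 and -3.21 in pLB. All arrays were well above background, the pLB arrays were nearly identical, and the lines lay far apart. TWIST1 was 4.82-fold lower in pLB (log2 difference -2.27 ± 0.16, SE, n = 3 and 3; limma, adjusted p = 2.6e-05). It was called lower under each of 18 alternative settings, the smallest difference being -1.63 with another background correction (normexp). The other TWIST1 probe, at chr7:19155645-19155704, read -5.52, -4.29 and -4.56 in pLUM and -7.69, -7.14 and -6.96 in pLB. It was well above background on 2 pLUM arrays and no pLB array, and was not tested. Its values gave a bound of at least 1.42-fold lower in pLB, the same direction as the first.

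TWIST2 remained near background. Its intensity was 2.61, 2.74 and 3.36 in pLUM and 15.2, 21.0 and 9.33 in pLB, and only pLB replicate 2 was well above background. No fold is given. The probe lies at chr2:239832044-239832103 (BC103755).

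ZEB1 was higher in pLB with both of its probes. The brighter one, at chr10:31818063-31818122 (NM_001128128), read -4.28, -4.44 and -4.34 in pLUM and -2.47, -2.26 and -1.61 in pLB. It was well above background on all arrays, and the lines did not overlap. ZEB1 was 4.71-fold higher in pLB (log2 difference 2.24 ± 0.24, SE, n = 3 and 3; limma, adjusted p = 0.00018). The dimmer probe, at chr10:31816261-31816320, was well above background on no pLUM array and on all 3 pLB arrays, with a bound of at least 2.07-fold (limma, adjusted p = 4.8e-05). These signals were dim, with intensities of 24.5 to 28.1 in pLUM and 145 to 157 in pLB for the brighter probe. The call was lost with normexp, where the difference was 0.68 (adjusted p = 0.15), and that of the dimmer probe was 0.03.

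The related repressor ZEB2 gave no usable comparison. The probe printed above was well above background only on pLUM replicate 1, where its intensity was 25.8, and reached 3.99 to 5.52 on the other 5 arrays. The other probe, at chr2:145146261-145146320, was well above background on 2 pLB arrays and no pLUM array, with intensities of 29.5, 18.4 and 10.9 in pLB and 2.69 to 3.46 in pLUM. The probes thus differed in the line that was brighter. For the latter the bound was 1.16-fold higher in pLB, and neither probe was tested.

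FOXC2 was not well above background on any array. Its intensities ranged from 2.53 to 2.60 in pLUM and from 2.73 to 4.08 in pLB, so that no fold can be given.

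VIM was higher in pLB, from a signal at the edge of detection in pLUM. It read -4.99, -5.01 and -5.37 in pLUM and -1.79, -2.47 and -2.16 in pLB, and was well above background on 2 pLUM and all 3 pLB arrays. As intensities these were 14.9, 17.5 and 13.7 against 251, 125 and 100.3. The lines did not overlap, and VIM was 7.89-fold higher in pLB (log2 difference 2.98 ± 0.23, SE, n = 3 and 3; limma, adjusted p = 3.1e-05). Within slide 1, which held the 3 pLUM arrays and pLB replicate 1, the difference was 3.33. With normexp it was 0.82 and was not called (adjusted p = 0.083).

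FN1 had 1 probe, which was not well above background on any array, with intensities of 2.91 to 3.01 in pLUM and 3.13 to 4.69 in pLB. A single probe cannot show that FN1 was not expressed, as transcripts without its sequence would not be seen. SPARC was variable. It read -4.82, -6.00 and -7.17 in pLUM and -5.18, -4.15 and -3.70 in pLB, so that the lines overlapped, and 1 pLUM and 2 pLB arrays were well above background. The log2 difference of 1.65 (95% interval 0.19 to 3.11) had an adjusted p of 0.05 in limma, which did not fall under the threshold. Within slide 1 the difference was 0.81. With normexp it was -0.21, so that no direction is given for SPARC. Without pLUM replicate 1 or pLB replicate 1 it was 2.24 or 2.07, and was called. The probe lies on chromosome 5 from 151041040 to 151041099 (NM_003118).

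**Figure D2:**
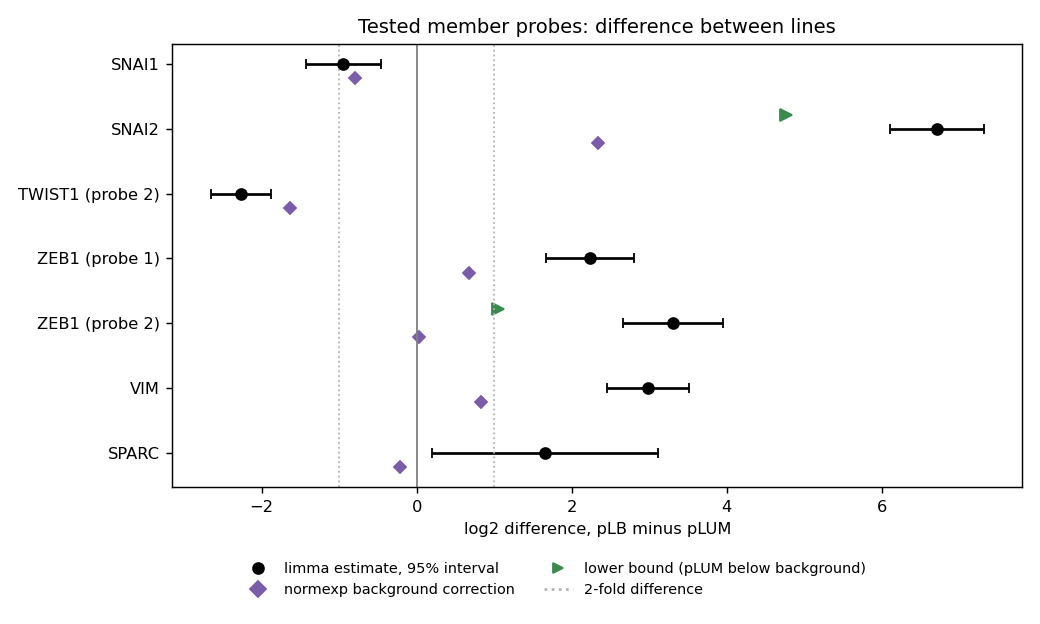
Differences of the 7 tested probes (pLB minus pLUM, log2), with the limma estimate and its 95% interval as black points and bars. Purple diamonds give the difference with normexp background correction, green triangles the lower bound where pLUM was not well above background, and dotted lines a 2-fold difference. TWIST1 at -2.27 and SNAI2, bounded at 4.76, stayed beyond 2-fold with normexp, whereas ZEB1 and VIM did not.

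The normexp setting bore most on the dim probes. It adds an offset of 50 to each intensity, which by itself shrinks the differences of dim probes. Calls of such probes lost with normexp therefore cannot be assigned to the background correction alone. With normexp SNAI2 was still called higher, with a bound of at least 4.52-fold, and TWIST1 lower, so that 2 of the 4 calls held under every alternative setting that gave them a value. Neither SNAI1 nor SPARC was called with normexp.

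Related genes were examined as 4 lists, of which 89 genes were called, and 82 of these differed by less with normexp. The offset of normexp favors such smaller differences. Beyond these factors, 40 other regulators of EMT were examined, of which 34 were tested. In pLB, 15 were higher and 6 lower, beside 22.7% and 23.0% of all tested genes, and 13 were not called. The median difference was 0.78, or 0.36 with normexp. The largest increases were of FOXQ1, a forkhead factor, which was at least 109.9-fold higher (limma, adjusted p = 2e-07), and of TCF4, which encodes the E-box binding protein E2-2 and was 230-fold higher (adjusted p = 1.2e-06). Only 1 pLUM array was well above background for TCF4, and its fold was 178 with signals raised to the lowest flagged signal and 27.9 with normexp. PRRX2, a paired-type homeobox factor, rose 15.5-fold and FOXC1, a relative of FOXC2, rose 14.5-fold, both in limma and both well above background on all arrays, with log2 differences of 2.57 and 2.48 with normexp. Probes of HMGA2, an architectural chromatin protein, disagreed. Its probe with the highest mean over the 6 arrays, at 0.85 in pLB, was not called (log2 difference 0.41). The other 2, at 1.49 and -0.12 in pLB, were well above background in pLB alone, at least 117-fold and 38.2-fold higher. The largest decreases were of ID2 (20.8-fold) and ID4 (a log2 difference of -2.81), inhibitors of basic helix-loop-helix factors, of the T-box factor TBX2 (at least 12.1-fold) and of the lysyl oxidase LOXL2 (at least 5.12-fold). Another inhibitor of this family, ID1, rose 13.0-fold. With normexp the log2 differences of FOXQ1, TBX2 and LOXL2 were 4.08, -1.89 and -1.28, each smaller than its bound (6.78, -3.60 and -2.36 as log2). Of the 21 calls, 15 held under every alternative.

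TGF-beta is a classical inducer of EMT. Of 20 genes of this pathway, 19 were tested, of which 11 were higher and 4 lower in pLB, beside 22.7% and 23.0% of all tested genes. Of the 19, 6 were well above background on no pLUM array and passed the filter only through pLB. The median difference was 1.56, or 1.49 with dim genes at their bound, 0.65 over the 10 genes well above background on all arrays and 0.21 with normexp. The target TGFBI rose 218.5-fold (limma, adjusted p = 6.7e-07), or 42.9-fold with normexp, and the type II receptor TGFBR2 at least 40.9-fold (adjusted p = 8e-06). With normexp the log2 difference of TGFBR2 was 2.88, below its bound of 5.35. The target CTGF was at least 4.89-fold higher, but was not called with normexp. The ligand TGFB3 fell 7.18-fold, whereas TGFB1 rose 10.4-fold. With normexp their log2 differences were -2.27 and 1.90. The type I receptor TGFBR1 (2.48-fold) and the signal transducers SMAD4 (2.13-fold) and SMAD2 (2.11-fold) were also lower, and none of these 3 was called with normexp. As log2 differences, SMAD4 was at -0.96 without pLUM replicate 1, and SMAD2 to -0.93 without pLUM replicate 2 and -0.99 without pLB replicate 2, each under 2-fold. Both calls were lost with spike-in scaling, and that of SMAD2 also with slide as a block (-0.82) and with the signal floor. Of the 15 calls in this pathway 9 were lost with normexp.

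Of 50 mesenchymal and matrix genes other than VIM, FN1 and SPARC, 34 were tested, 25 were higher in pLB, 3 lower and 6 not called, beside 22.7% higher and 23.0% lower of all tested genes. Of the 34, 8 passed the filter only through pLB. Among genes well above background on all arrays 13 of 22 were higher, and without the filter 26 of 50. The median difference was 2.70, or 1.53 with normexp and 1.26 with either other filter. The matrix protein TNC was at least 110.7-fold higher, and CAV1, the main coat protein of caveolae, at least 54.2-fold higher. With normexp the log2 differences of TNC and CAV1 were 4.11 and 3.09, below these bounds (6.79 and 5.76 as log2). N-cadherin (CDH2) was 149-fold higher (limma, adjusted p = 5.2e-07) and CDH11 134-fold higher (adjusted p = 6.3e-05), each with 1 pLUM array well above background. With signals raised to the lowest flagged signal their log2 differences were 6.91 and 5.87, and with normexp 4.21 and 3.42. COL5A2 (3.97-fold), the actin-binding protein TAGLN (2.78-fold) and S100A4 (2.30-fold) were lower, the last of which was not called with spike-in scaling or slide as a block. The remaining 16 genes, among them COL3A1, POSTN, DCN, LUM and PDGFRB, did not pass the filter. Of the 28 calls, 22 held under every alternative.

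**Figure D3:**
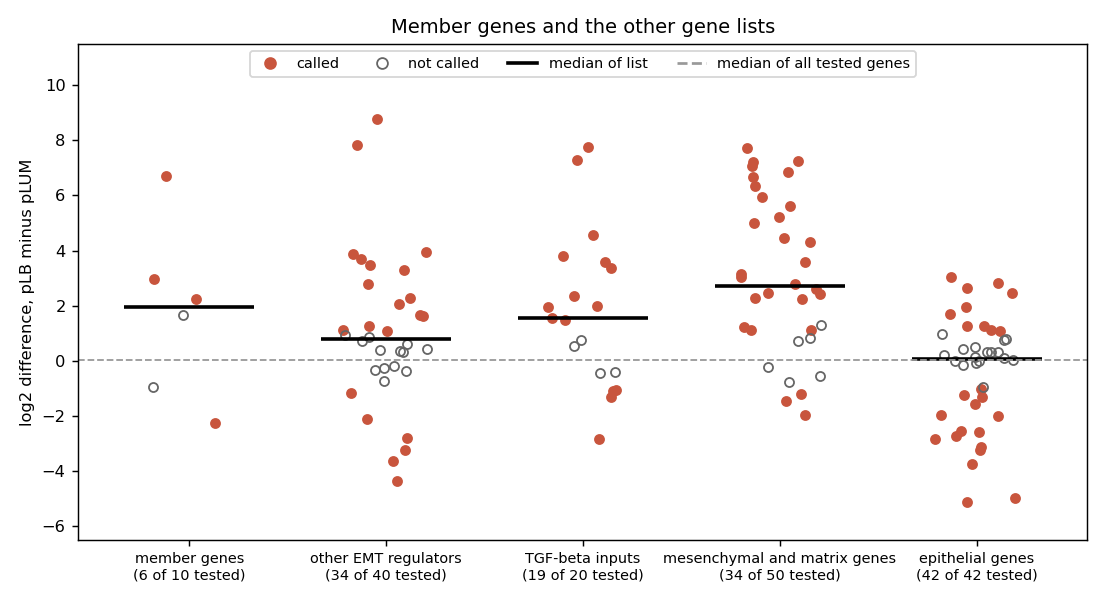
Difference between the lines (pLB minus pLUM, log2) for each tested gene of the 10 genes and of 4 lists of related genes. Filled points were called, open points were not, black bars give the median of each list and the dashed line that of all tested genes (0.04). Epithelial genes spread on both sides of 0, with a median of 0.06, whereas the median of mesenchymal and matrix genes, 8 of which passed the filter only through pLB, was 2.70.

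E-cadherin, the classical target of these repressors, was not lower in pLB. CDH1 read 3.95 ± 0.31 (SD, n = 3) in pLUM and 4.25 ± 0.23 in pLB, a log2 difference of 0.30 (limma, adjusted p = 0.27), and was not called under any alternative. Its 95% interval ran from -0.22 to 0.82, so that a decrease of 2-fold lay outside it. Of 42 epithelial genes, all tested, 10 were higher, 15 lower and 17 not called. The share called higher, 23.8%, was near that of all tested genes (22.7%), and 35.7% were lower, beside 23.0%. The median difference was 0.06 (-0.08 with quantile normalization). The cell polarity gene PARD6B fell 34.8-fold, the epithelial ETS factor EHF 31.7-fold, the tight junction gene TJP3 9.39-fold and the motor gene MYO5B at least 5.46-fold. With normexp the log2 difference of MYO5B was -1.31, smaller than its bound of -2.45, and that of TJP3 was -1.64. TJP3 was at the edge of detection in pLB, with a mean of -5.12 and 2 arrays well above background. The desmosome genes DSP (8.31-fold), DSC2 (7.14-fold), DSG2 (6.23-fold) and PKP2 (5.47-fold) rose. With normexp their log2 differences were 3.09, 2.01, 1.09 and 1.41. The splicing factor ESRP2 was 2.97-fold lower, whereas ESRP1 was not called (0.44 on the log2 scale; adjusted p = 0.099). EPCAM was 2.15-fold higher, a call that was lost with quantile normalization and without pLB replicate 2, where the log2 difference was 0.96.

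**Figure D4:**
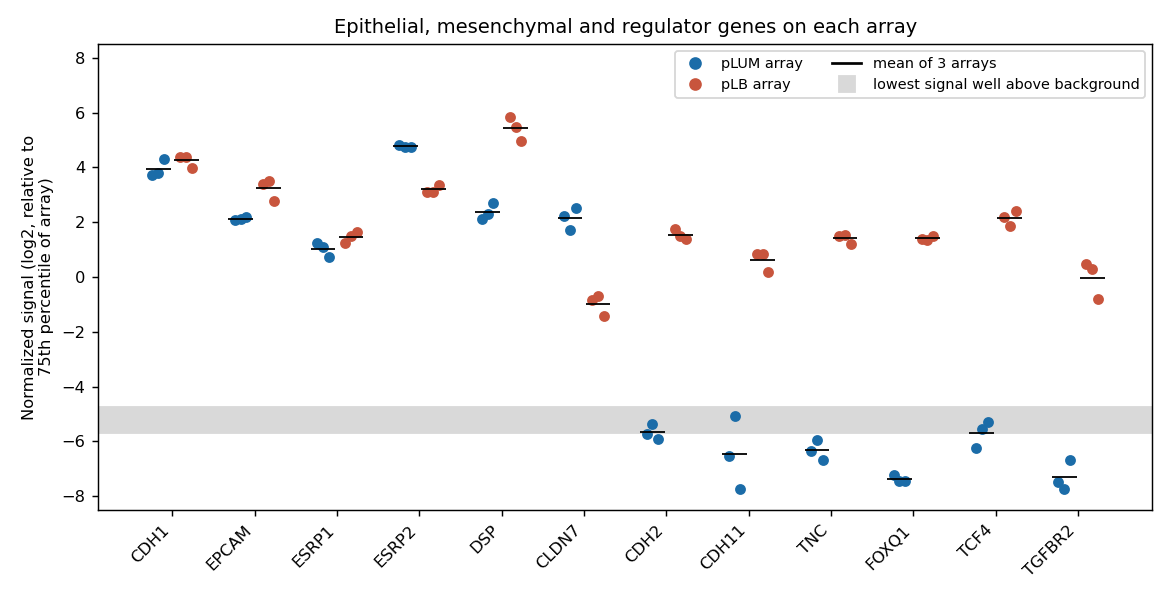
Normalized signal (log2, relative to the 75th percentile of the array) of 12 epithelial, mesenchymal and regulator genes on each of 3 pLUM and 3 pLB arrays, with line means as black bars and the lowest signals well above background as a grey band. CDH1 overlapped between the lines at 3.95 and 4.25 on average, whereas CDH2 rose from the edge of the band to 1.55.

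Markers of other cell types were examined because fibroblasts also express VIM, FN1 and SPARC. Of 9 fibroblast markers, 1 (COL1A1) had at least 1 flagged array in pLUM and 3 (COL1A1, COL1A2 and THY1) in pLB. DCN, LUM, COL3A1, PDGFRA, PDGFRB and FAP were well above background on no array. The summed level of the list relative to the 75th percentile was 0.79 to 0.982 in pLUM and 1.27 to 1.82 in pLB. Of 4 endothelial markers 1 and 2 were well above background in pLUM and pLB, with PECAM1 and KDR on no array, and sums of 0.0728 to 0.108 and 0.0937 to 0.207. All 5 leukocyte markers were well above background on some array of each line, CD3E on only 1 of each. Their sum was 1.04 to 1.73 in pLUM and 15.4 to 34.2 in pLB, most of it CD79A, which rose 18.4-fold. CD68 rose 2.87-fold, whereas PTPRC and CD14 were not called, and another PTPRC probe was called lower. The part of such cells in the differences of VIM and SNAI2 was not tested.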

How the data were processed

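RNA of sorted pLUM cells and pLB cells (3 arrays each) was measured on 1-colour Agilent arrays, and the lines were grouped by the sample titles. The authors deposited scanner tables made with Feature Extraction 10.10.1.1 (Agilent), in which each spot has an intensity corrected for background but not normalized between arrays. The submitters' processing notes also name Partek. Its output was not used here.

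Each intensity was divided by the 75th percentile of its array and given as log2, after control spots and 296 to 387 outlier-flagged spots per array had been left out. The 75th percentile ranged from 449 to 869, and no gene spot was saturated. Probes flagged well above background on 3 or more of 6 arrays were compared by lmFit and eBayes of limma 3.58.1 (R 4.3.3), and p-values were adjusted over all 23099 tested probes. A gene was represented by its tested probe with the highest mean. Where no array of a line detected a probe above background, the fold is a lower bound. For the bound, each dim array took either the signal of the probe or the lowest signal flagged on that array, whichever was higher. The mean of these was set against the mean of the bright line. Such a bound holds for the deposited background correction only, and differences with normexp can be smaller. The limma p of such a probe tests the fitted difference and not the bound. The fit was checked on simulated data.

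Slide 1 (scan 1) held the 3 pLUM arrays and pLB replicate 1, and slide 2 (scan 2) pLB replicates 2 and 3. Slide was fitted as a block. Replicate numbers were not used as pairs, because the deviations of same-numbered arrays correlated at -0.27, -0.10 and -0.22. Alternatives were normexp background correction (offset 50, on the deposited mean and background intensities), quantile, median and spike-in scaling, other filters, a signal floor, no fold threshold, the mean of a gene's probes, the methods' t-test, slide and replicate blocks, and leaving out each array.

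The genes and lists were chosen with earlier results of these data known, and so give no independent evidence of direction. Named are all probes of the 10 genes, CDH1 and CDH2, the markers of the lines and of other cells, and in each list up to 4 called genes each way, by size of the fitted change, except for 1 gene that is not reported here. ID1, HMGA2, TGFB1, ESRP1 and ESRP2, and the list members named as untested, were chosen after their values had been seen. Start site sequences came from RefSeq on GRCh38.p14, and no position was converted between builds.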

Additional observations from a re-analysis of the deposited data

How the results depend on the processing

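SNAI2, TWIST1 and the counts of other EMT regulators and of epithelial genes kept their direction, and the counts stayed within 1.5 times the value given, under every alternative that gave a value. With normexp, 1 of the 10 genes was called higher instead of 3, ZEB1 at 0.68 and VIM at 0.82 were not called, SPARC turned to -0.21, and among TGF-beta genes 5 were called higher and 1 lower, while the median of all genes was -0.21 and 2562 genes were called higher and 3088 lower. SPARC was called at 1.59 with quantile normalization, 1.64 with median scaling, 1.90 with spike-in scaling and 1.65 with the mean of the probes. Spike-in scaling moved the median of all genes to 0.29 and the calls to 4821 higher and 3226 lower, beside 4015 and 4066, with 2 TGF-beta genes lower. Without a filter on dim probes 5 of the 10 genes were called higher, TWIST2 and ZEB2 being added. With normexp the differences of these TWIST2 and ZEB2 probes were -0.31 and -0.22, the opposite direction. With probes well above background on all arrays, 3 of the 10 genes could be tested and 1 was called higher (their median was -0.95), with 4 TGF-beta genes higher and 2 lower, and 13 mesenchymal and matrix genes higher, as fewer genes were tested. Without a fold threshold SNAI1 was called at -0.95, so that 2 of the 10 genes were lower. Leaving out each array in turn gave 3 to 4 genes higher and 1 to 2 lower, -1.06 to -0.76 for SNAI1 and 1.06 to 2.24 for SPARC. With slide as a block, which rests on pLB replicate 1, the 10 genes gave the same 3 and 1 calls. The replicate block changed no call among the 10 genes (3 higher, 1 lower) and gave 3968 genes higher and 4006 lower. The causes were not tested. Intensities near background limit VIM, ZEB1, ZEB2, TWIST2, FOXC2, FN1 and SPARC.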
